A study of Mus musculus with 8 samples.

Results

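HOX genes of the A and B clusters were measured by RNA-seq in 2 stem and progenitor populations of mouse bone marrow, and 10 of them are described here out of 29955 gene names. They were taken by name: Hoxa3, Hoxa5, Hoxa7, Hoxa9 and Hoxa10 of the HOXA cluster, and Hoxb2, Hoxb3, Hoxb4, Hoxb5 and Hoxb6 of the HOXB cluster. The populations were LSK cells (Lin- Sca1+ Kit+), which hold the hematopoietic stem cells (HSCs) and multipotent progenitors, and LK cells (Lin- Sca1- Kit+ in the study), which hold the myeloid progenitors. Each was sorted from wild-type (WT) and from Ripk3-KO mice on a background written as CD57BL6/J, which gave 4 groups of 2 libraries. Ripk3 is a kinase that starts necroptosis, a programmed form of necrosis. The study describes repeated low-dose X-ray exposure of the mice before collection, whereas the sample labels state no treatment. In either case all groups share it. Age, the allele and the number of animals behind a library are not given in the sources used here, so p-values measure the spread between libraries, which may be technical.

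HOX genes encode transcription factors with a homeodomain, and they lie side by side in clusters in which position along the chromosome goes with where and when a gene is used in the embryo. In blood formation several genes of the A and B clusters are most active in stem cells and early progenitors and are turned down as cells differentiate. HOX proteins bind DNA together with TALE cofactors of the PBX and MEIS families. The MLL and Menin complex keeps the clusters active and Polycomb complexes keep them silent, and HOXA genes that stay on are a hallmark of leukemias with MLL fusions or NPM1 mutations.

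The libraries held 9782166 to 16280811 reads on genes. The deposited values, here called signal, are reads scaled to a library size within LSK or within LK, so levels of LSK and LK cells were compared only after the recovered reads had been put on 1 common scale of library size (CPM). The sort could be seen in its own genes: Ly6a, which encodes Sca1, had a CPM of 123 to 207 in LSK cells and 0.14 to 4.68 in LK cells, and Mpo, a myeloid granule enzyme, had 3088 to 4953 in LSK cells and 42390 to 62245 in LK cells. Ripk3 signal was 162 and 168 in WT LSK libraries against 3.38 and 1.08 in Ripk3-KO LSK libraries, and 144 and 150 in WT LK libraries against 16.2 and 10.6 in Ripk3-KO LK libraries. Genotype and the sex of the mice cannot be told apart, since every WT library held Xist signal of 108 or more and no read of the Y-linked genes Uty, Eif2s3y and Kdm5d, and every Ripk3-KO library held reads of all 3 and an Xist signal of at most 1.27. Ddx3y, the other Y-linked gene looked at, was listed at 0 in all 8 libraries. In bulk RNA, fewer cells that express a gene and less RNA per cell cannot be told apart.

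In the annotation of GRCm38 the HOXA genes described here spread over 71793 bases of the minus strand of chromosome 6 (52169062 to 52240854), and the HOXB genes over 61537 bases of the plus strand of chromosome 11 (96292476 to 96354012). Hoxa5, Hoxa9, Hoxa10, Hoxb4, Hoxb5 and Hoxb6 share no exon bases with another annotated gene. Exons of Hoxa3 overlap Gm28308 on the same strand and Hoxaas2, Hoxaas3 and Gm29430 on the other, exons of Hoxa7 overlap the antisense gene Hoxaas3, and exons of Hoxb2 and Hoxb3 overlap the antisense gene Hoxb3os. The library kit keeps the strand, but whether counting used it is not given in the sources used here, so values of Hoxa3, Hoxa7, Hoxb2 and Hoxb3 are uncertain to the extent that reads of those partners were counted with them.

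Of the 10 genes, 6 had a start in the RefSeq promoter table (GRCm38.p6). The 250 bases before the start are printed for the 4 of these whose level was called as different between the populations in at least 1 genotype. They run 5' to 3' on the strand of the gene, and capitals mark a GC box (GGGCGG, either strand). No window overlaps an annotated exon. The Hoxa9 window lies in an intron of a longer Hoxa9 transcript, and the others end directly before their gene, the Hoxa5 window within an intron of longer Hoxa3 transcripts. Hoxa10 has a second start in the table, and its window is not printed.
Hoxa5, chr6:52204588-52204837: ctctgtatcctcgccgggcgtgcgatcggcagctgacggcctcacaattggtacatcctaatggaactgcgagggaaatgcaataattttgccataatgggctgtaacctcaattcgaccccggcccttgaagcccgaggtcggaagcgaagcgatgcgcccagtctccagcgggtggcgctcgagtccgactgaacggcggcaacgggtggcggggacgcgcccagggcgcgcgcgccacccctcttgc
Hoxa9, chr6:52227371-52227620: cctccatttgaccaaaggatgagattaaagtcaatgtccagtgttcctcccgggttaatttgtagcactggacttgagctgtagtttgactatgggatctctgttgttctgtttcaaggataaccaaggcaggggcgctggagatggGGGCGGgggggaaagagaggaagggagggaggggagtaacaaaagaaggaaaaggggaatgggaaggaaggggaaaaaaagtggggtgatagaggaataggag
Hoxa10, chr6:52240855-52241104: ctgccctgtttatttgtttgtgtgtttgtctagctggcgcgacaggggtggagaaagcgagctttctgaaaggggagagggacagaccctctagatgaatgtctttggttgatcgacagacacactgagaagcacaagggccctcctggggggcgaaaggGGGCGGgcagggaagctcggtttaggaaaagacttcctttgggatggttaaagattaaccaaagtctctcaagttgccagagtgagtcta
Hoxb4, chr11:96318017-96318266: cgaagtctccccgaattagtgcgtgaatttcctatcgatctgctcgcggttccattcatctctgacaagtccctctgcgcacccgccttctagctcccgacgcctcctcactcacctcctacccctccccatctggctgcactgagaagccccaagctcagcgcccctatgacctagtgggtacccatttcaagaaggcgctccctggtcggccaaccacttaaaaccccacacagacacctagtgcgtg

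The 4 windows differed in base composition, with 28 CpG dinucleotides before Hoxa5, 14 before Hoxb4, 7 before Hoxa10 and 3 before Hoxa9, against a median of 6 over all promoters of the table. Hoxa9 and Hoxa10 each held 1 GC box, which 33.0% of 32536 promoters hold. A composite PBX and HOX motif (TGATNNAT, either strand, in 7.66% of all promoters) was not among the letters of any of these windows. Nor was the MEIS motif (TGACAG, in 15.8% of all promoters). At the second Hoxa10 start the window, which is not printed, held 20 CpG dinucleotides and 0 GC boxes.

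Per length of transcript, Hoxa9 and Hoxa7 stood first in both populations. In CPM per kilobase of the longest coding transcript, Hoxa9 was at 15.5 ± 0.23 (SD, n = 2) in WT LSK and 16.5 ± 0.36 in Ripk3-KO LSK, and Hoxa7 at 13.8 ± 0.88 and 18.3 ± 0.13. Hoxa10 followed with 9.77 ± 3.68 and 9.45 ± 1.48, and Hoxa5 with 8.99 ± 0.57 and 6.91 ± 0.69. These neighbors in the order cannot be separated in WT LSK cells, where the 2 Hoxa10 libraries lay on either side of both Hoxa5 libraries, and the order of Hoxa7 and Hoxa9 in Ripk3-KO LSK cells turned when all exons were used as the length. HOXB genes were lower, with group means of 0.22 to 2.60 CPM per kilobase in LSK cells.

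In LK cells the order changed. Hoxa7 was highest with 8.13 ± 2.83 CPM per kilobase in WT and 9.50 ± 4.30 in Ripk3-KO, and Hoxa9 came next with 5.53 ± 0.56 and 4.54 ± 1.69. Hoxa5 was at 1.16 ± 0.12 and 1.72 ± 0.50, and Hoxa10 at 0.78 ± 0.30 and 0.90 ± 0.64. Every other gene of the 10 had a group mean of at most 0.43 CPM per kilobase. HOXA genes held 84.9% to 97.5% of the reads of the 10 genes in a library, and Hoxa9 alone 33.3% to 47.0%.

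**Figure D1:**
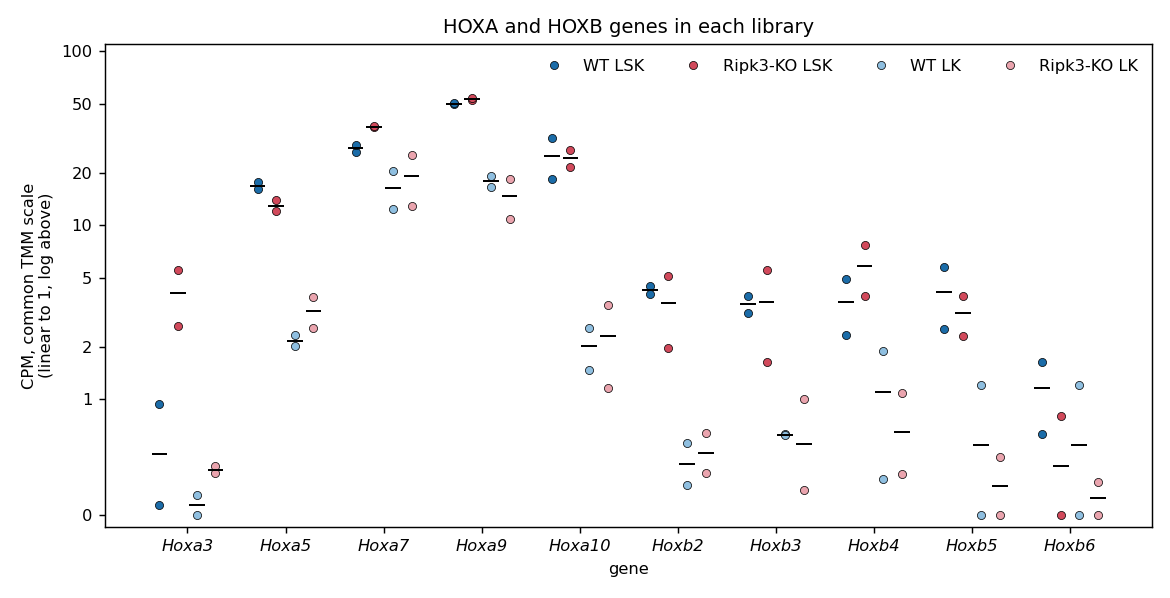
CPM on the common scale (linear up to 1, logarithmic above) of the 10 HOX genes in each of the 8 libraries; points are libraries colored by group and bars are means of 2 libraries. Hoxa9 libraries of LSK cells sit at 49.5 to 53.9 and those of LK cells at 10.8 to 19.1, and for 8 of the 10 genes every LSK point is above every LK point.

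The first comparison asked how HOX levels differed between LSK and LK cells of the same genotype. Hoxa9, Hoxa10 and Hoxa5 were higher in LSK cells of both genotypes. Of the 8 genes with enough signal to be tested in WT, 4 passed (adjusted p under 0.05, limma), where 9.16% of all genes tested were called as higher in LSK cells. In Ripk3-KO 4 of 9 passed, where 7.95% of all genes tested were called. Both LSK libraries were above both LK libraries for 8 of the 10 genes in WT and for 9 in Ripk3-KO, against 32.8% and 27.5% of all genes tested. Across the 8 libraries, 8 genes had every LSK library above every LK library, which 11.3% of genes with a mean CPM of at least 1 had; Hoxa3 and Hoxb6 did not. Hoxb2, Hoxb3 and Hoxb5, and in Ripk3-KO also Hoxa3 and Hoxb4, reached the filter (a mean CPM of at least 1) only through their LSK libraries, so these counts describe the genes and are no support of their own.

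Hoxa10, which acts in stem cells and early myeloid progenitors, had the largest fitted difference between the populations on the log2(CPM + 1) scale, which shrinks the differences of low genes. Its CPM was 31.7 and 18.4 in WT LSK libraries and 2.56 and 1.46 in WT LK libraries. In Ripk3-KO it was 26.9 and 21.6 in LSK libraries and 1.15 and 3.49 in LK libraries. All 4 LSK libraries lay far above all 4 LK libraries, and the genotypes overlapped within each population. On the log2(CPM + 1) scale the fold change was 3.09 ± 0.56 (SE) in WT (adjusted p = 0.00038, limma) and 3.01 ± 0.55 in Ripk3-KO (adjusted p = 0.00039, limma).

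Hoxa9, whose product sustains self-renewal and is central to MLL-rearranged leukemia, was the most read of the 10 genes in LSK cells. Its CPM was 49.5 and 50.6 in WT LSK libraries and 16.6 and 19.1 in WT LK libraries. Ripk3-KO libraries held 52.3 and 53.9 in LSK cells and 10.8 and 18.5 in LK cells. The LSK libraries agreed closely with each other, and the Ripk3-KO LK libraries were the most spread. LSK cells were higher by 1.44 ± 0.34 on the log2 scale in WT (adjusted p = 0.00397, limma) and 1.83 ± 0.34 in Ripk3-KO (adjusted p = 0.00043, limma).

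Hoxa5, a gene known to turn progenitors toward myeloid fates, had a CPM of 16.1 and 17.6 in WT LSK and 2.01 and 2.33 in WT LK libraries. In Ripk3-KO the values were 13.9 and 12.1 in LSK and 3.89 and 2.56 in LK libraries. The populations did not overlap in either genotype. The difference on the log2 scale was 2.50 ± 0.54 in WT (adjusted p = 0.00204, limma) and 1.74 ± 0.54 in Ripk3-KO (adjusted p = 0.0241, limma). The Ripk3-KO call did not hold when any 1 of the 4 Ripk3-KO libraries was left out (adjusted p = 0.057 to 0.179, limma).

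Hoxa7, which works beside Hoxa9 and Meis1 in myeloid leukemia of mice, had the smallest difference of the tested genes. CPM was 26.5 and 29.0 in WT LSK and 20.4 and 12.3 in WT LK libraries, and 36.6 and 37.0 in Ripk3-KO LSK and 13.0 and 25.2 in Ripk3-KO LK libraries. The lowest LSK library lay just above the highest LK library. Its log2 fold change was 0.77 (95% interval -0.04 to 1.57) in WT (adjusted p = 0.15, limma) and 0.98 (0.18 to 1.79) in Ripk3-KO (adjusted p = 0.0805, limma), and with the deposited scaling both passed (1.12, adjusted p = 0.0442, and 1.34, adjusted p = 0.0177, limma).

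Hoxa3, best known from the development of the pharyngeal arches and the thymus, was at the limit of detection in WT cells. It had 11 and 1 reads in WT LSK and 0 and 2 reads in WT LK libraries. In Ripk3-KO it had 37 and 65 reads in LSK and 5 and 6 reads in LK libraries. The pooled WT ratio of LSK over LK rests on 12 against 2 reads and was 6.55 with a 95% interval of 1.46 to 60.2, which covers counting error only. In Ripk3-KO the log2 fold change was 1.81 ± 0.65 (adjusted p = 0.0526, limma).

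The HOXB genes were low in both populations, and most were close to the limit of the depth in LK cells. Hoxb4, known for expanding HSCs when overexpressed, had a CPM of 2.35 and 4.91 in WT LSK, 0.31 and 1.89 in WT LK, 3.92 and 7.70 in Ripk3-KO LSK and 1.08 and 0.36 in Ripk3-KO LK libraries. The populations did not overlap within a genotype. The log2 fold change was 1.96 ± 0.67 in Ripk3-KO (adjusted p = 0.04, limma, and 0.107 with edgeR) and 1.19 ± 0.66 in WT (adjusted p = 0.183, limma). The Ripk3-KO call was lost without LSK replicate 2 or either LK library (adjusted p = 0.0782 to 0.256, limma).

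Hoxb2, a gene of hindbrain patterning that is also read in blood progenitors, had a CPM of 4.01 and 4.46 in WT LSK and 0.62 and 0.26 in WT LK libraries. It had 5.13 and 1.97 in Ripk3-KO LSK and 0.36 and 0.71 in Ripk3-KO LK libraries. Its log2 fold change was 1.87 ± 0.63 in WT (adjusted p = 0.0332, limma, and 0.0873 with edgeR) and 1.48 ± 0.64 in Ripk3-KO (adjusted p = 0.115, limma). The WT call did not hold when any 1 of the 4 WT libraries was left out (adjusted p = 0.0785 to 0.151, limma).

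Hoxb5, used as a marker of long-term HSCs, had 29 and 63 reads in WT LSK and 0 and 14 in WT LK libraries, and 55 and 27 in Ripk3-KO LSK and 7 and 0 in Ripk3-KO LK libraries. Its log2 fold changes were 1.71 ± 0.65 and 1.72 ± 0.67 (adjusted p = 0.058 in WT and 0.0763 in Ripk3-KO, limma). A count of 0 in a WT LK library allows up to 3 reads, a signal of 0.204. Hoxb3, which affects progenitor growth when overexpressed, had log2 fold changes of 1.41 in both genotypes (adjusted p = 0.11 in WT and 0.144 in Ripk3-KO, limma). Hoxb6, linked to myelomonocytic cells, had 0 to 18 reads in each of the 8 libraries and was not tested.

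Over the genes tested, the median log2 fold change was 1.58 in WT and 1.74 in Ripk3-KO, beside 0.08 and 0.00 over all genes tested. The scaling matters for the size of these values. With the deposited scaling the median of all genes moved to 0.41 and 0.34, and the share of called genes that were higher in LSK cells went from 38.3% to 70.9% in WT and from 39.5% to 71.3% in Ripk3-KO. The 4 calls of each genotype kept their direction and their call under that scaling and under library totals alone. Markers of other cells moved between the populations as well: the summed CPM of 4 stromal genes was 36.0 to 55.3 in WT LSK, 19.2 to 22.4 in Ripk3-KO LSK and 9.39 to 12.5 in LK libraries, and that of 4 T cell genes 13.6 to 18.9 in LSK and 2.88 to 7.28 in LK libraries. Of these, Cxcl12 and Cd3g were called as higher in LSK cells of both genotypes and Col1a1 in WT, and 1 marker, Cd3d, was at 0 in 1 library (Ripk3-KO LK). Cxcl12 in WT and Cd3g in Ripk3-KO reached the filter only through their LSK libraries. The part of the stromal and T cell genes in the result was not tested.

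**Figure D2:**
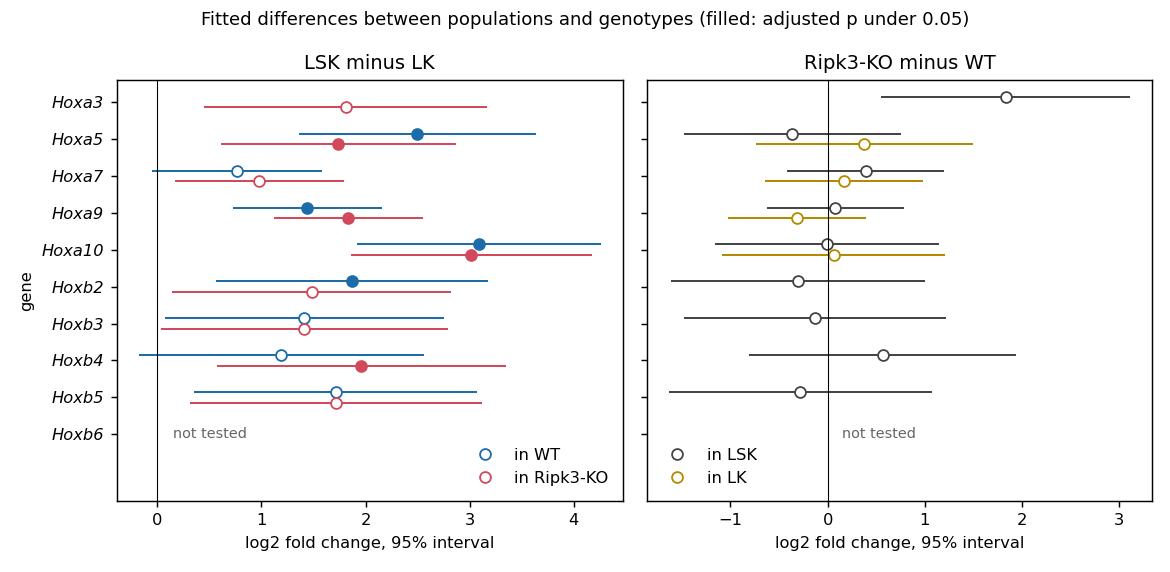
Log2 fold changes with 95% intervals from limma for each HOX gene, LSK minus LK on log2(CPM + 1) within WT and within Ripk3-KO (left) and Ripk3-KO minus WT on log2(signal + 1) within LSK and within LK (right); filled points have an adjusted p under 0.05 and genes without a point had too little signal. Between populations 4 genes are filled in each genotype, with Hoxa10 farthest out at 3.09 and 3.01, and between genotypes no gene is filled.

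A ratio of reads inside 1 library needs no scaling between libraries. Reads of Hoxa10 per read of Hoxa9 were 0.641, 0.363, 0.515 and 0.4 in the 4 LSK libraries and 0.154, 0.0766, 0.107 and 0.188 in the 4 LK libraries. The 2 sets did not overlap. The difference was 1.91 on the log2 scale (2-sided exact permutation test over 4 against 4 libraries, p = 0.0286, the smallest this design allows, and 0.0857 after adjustment over the 3 ratios). Hoxa7 went the other way, from 0.535 to 0.7 reads per read of Hoxa9 in LSK libraries to 0.644 to 1.36 in LK libraries, with overlap (log2 difference -0.78, exact permutation p = 0.0857, adjusted p = 0.129). For Hoxa5 the ratio was 0.224 to 0.349 in LSK and 0.121 to 0.36 in LK libraries (exact permutation p = 0.143, adjusted p = 0.143). These ratios were chosen after the levels had been seen, and each library enters with both genotypes pooled.

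**Figure D3:**
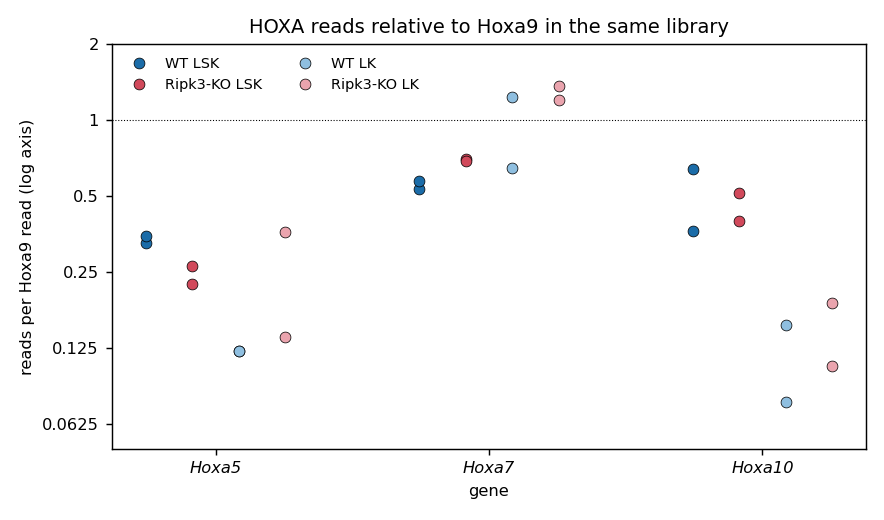
Reads of Hoxa5, Hoxa7 and Hoxa10 per read of Hoxa9 in the same library (log axis), with 1 point per library colored by group and a dotted line at equal reads. For Hoxa10 all LSK points lie at 0.363 or above and all LK points at 0.188 or below, whereas 3 of the 4 LK points of Hoxa7 are above 1.

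The second comparison asked whether the genotypes differed within a population. No tested gene of the 10 was called between Ripk3-KO and WT. In LSK cells 0 of 9 tested genes were called by limma, where 2.16% of all genes tested were. Of the 9, 1 had an unadjusted p under 0.05, against 3011 of all 16817 genes tested. In LK cells 0 of 4 were called, where 0.473% of all genes tested were. Of the 4, 0 had an unadjusted p under 0.05, against 915 of all 13949 genes tested. edgeR and DESeq2 on the recovered reads also called 0. Genotypes did not overlap for 4 of the 9 tested genes in LSK cells and for 1 of the 4 in LK cells. Of all genes tested, 44.6% and 40% did not overlap, so these counts are not above the background. Hoxa3, not tested in LK cells, did not overlap there either, with 0 and 2 reads in WT against 5 and 6 in Ripk3-KO libraries. The design of 2 against 2 libraries cannot reach an exact permutation p under 0.333.

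Hoxa9 and Hoxa10 had fitted genotype differences near 0 in LSK cells. Hoxa9 signal was 56.4 and 57.6 in WT and 59.0 and 61.6 in Ripk3-KO libraries. The 2 Ripk3-KO libraries lay just above the 2 WT libraries. This gave a log2 fold change of 0.08, with a 95% interval of -0.62 to 0.78 (adjusted p = 0.929, limma), and in LK cells it was -0.31 with an interval of -1.02 to 0.39. For Hoxa10 the changes were -0.01 (-1.15 to 1.13) in LSK and 0.06 (-1.07 to 1.20) in LK cells. A p that misses the threshold does not show that levels were alike, and the Hoxa10 intervals reach past a change of 1 on the log2 scale in either direction.

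Hoxa7 signal was 30.2 and 33.0 in WT LSK and 41.3 and 42.2 in Ripk3-KO LSK libraries, and Hoxa5 signal was 18.4 and 20.1 in WT LSK and 15.7 and 13.8 in Ripk3-KO LSK libraries. The genotypes did not overlap for either gene, in opposite directions. Neither difference passed the test, with log2 fold changes of 0.39 ± 0.38 for Hoxa7 (adjusted p = 0.626, limma) and -0.36 ± 0.53 for Hoxa5 (adjusted p = 0.76, limma).

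Hoxa3 reached the filter in LSK cells only through its Ripk3-KO libraries, so its fitted value is a description. Its signal was 1.09 and 0.10 in WT LSK and 2.97 and 6.36 in Ripk3-KO LSK libraries. Both Ripk3-KO libraries were higher, and each pair was widely spread. The log2 fold change was 1.83 ± 0.61 (unadjusted p = 0.00711, adjusted p = 0.1249, limma, and 0.519 with edgeR). Its neighbors Hoxa2 and Hoxa4, not among the 10 genes, had signal of 0.60 and 1.45 against 2.01 and 5.28, and of 0 and 1.76 against 3.22 and 2.54, in the same order of groups (adjusted p = 0.331 and 0.306, limma). Hoxa4 too reached the filter only through its Ripk3-KO libraries, so its values are no support of their own. The next genes, Hoxa5 and Hoxa6, had log2 fold changes of -0.36 and 0.07. Hoxa3 and Hoxa2 both share exon bases with Gm28308.

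The HOXB genes did not separate the genotypes in LSK cells. Hoxb4 signal was 2.68 and 5.59 in WT and 4.42 and 8.80 in Ripk3-KO libraries, and Hoxb3 signal was 3.58 and 4.45 in WT and 1.85 and 6.36 in Ripk3-KO libraries. The genotypes overlapped for all 5 HOXB genes. Log2 fold changes of the tested HOXB genes ran from -0.31 for Hoxb2 to 0.57 for Hoxb4, with adjusted p of 0.688 or more (limma).

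A test of whether the genotype difference itself differed between LSK and LK cells called 0 of 9 genes, and 0 had an unadjusted p under 0.05. Over all genes tested 0.358% were called, and 1613 of 15901 had an unadjusted p under 0.05 (limma). Among the 9 genes the largest difference was 1.51 ± 0.90 for Hoxa3 (adjusted p = 0.585, limma). The median log2 fold change of the genes tested was -0.01 between genotypes in LSK cells and 0.12 in LK cells, beside -0.01 and 0.01 over all genes tested. Markers of other cells moved with genotype. The summed signal of 8 neutrophil genes was 704 and 769 in WT LSK against 2339 and 2766 in Ripk3-KO LSK libraries, and 774 and 781 in WT LK against 1679 and 1683 in Ripk3-KO LK libraries. Of the 8, 7 were called as higher in Ripk3-KO LSK and 5 in Ripk3-KO LK cells, none was at 0 in any library, and their part in the HOX values was not tested. Of 8 LK markers, Gata1, an erythroid and megakaryocyte transcription factor, was called as lower in Ripk3-KO LSK cells (log2 fold change -1.32 ± 0.28, adjusted p = 0.0128, limma), 1 of the 8 had a fold change above 0 on the log2 scale in LSK and 0 in LK cells, and their part was not tested either.

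The other 29 HOX genes set the frame for these levels. Of them, 6 had no read in any library, 8 never had more than 3 reads, and 2, Hoxa6 and Hoxc8, had more than 3 reads in all 8 libraries. Among the 10 genes described, 5 had more than 3 reads in every library. Hoxc13, which is known from hair and nail growth, had a CPM of 5.75 and 4.36 in WT LSK and 0.077 and 0.60 in WT LK libraries, and 2.21 and 1.71 in Ripk3-KO LSK and 1.66 and 0 in Ripk3-KO LK libraries. All 8 other HOX genes tested in WT had a log2 fold change above 0. Of these, Hoxc13 alone was called as higher in WT LSK cells (log2 fold change 2.20 ± 0.64, adjusted p = 0.0168, limma, and 0.119 with edgeR). In Ripk3-KO all 7 tested were above 0, and Hoxa2 alone was called. It had 79 reads in LSK and 0 in LK libraries, at least 28.6-fold higher against 3 reads over the group (adjusted p = 0.0333, limma). Both genes reached the filter only through the LSK libraries in which they are high. So did others of those tested, such as Hoxd9 in WT. These calls and signs are therefore no support of their own. Between genotypes 0 of 11 other HOX genes in LSK cells and 0 of 2 in LK cells were called, with 1 and 0 at an unadjusted p under 0.05 (limma). Such a p was found for 3011 of all 16817 genes tested in LSK and 915 of 13949 in LK cells.

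**Figure D4:**
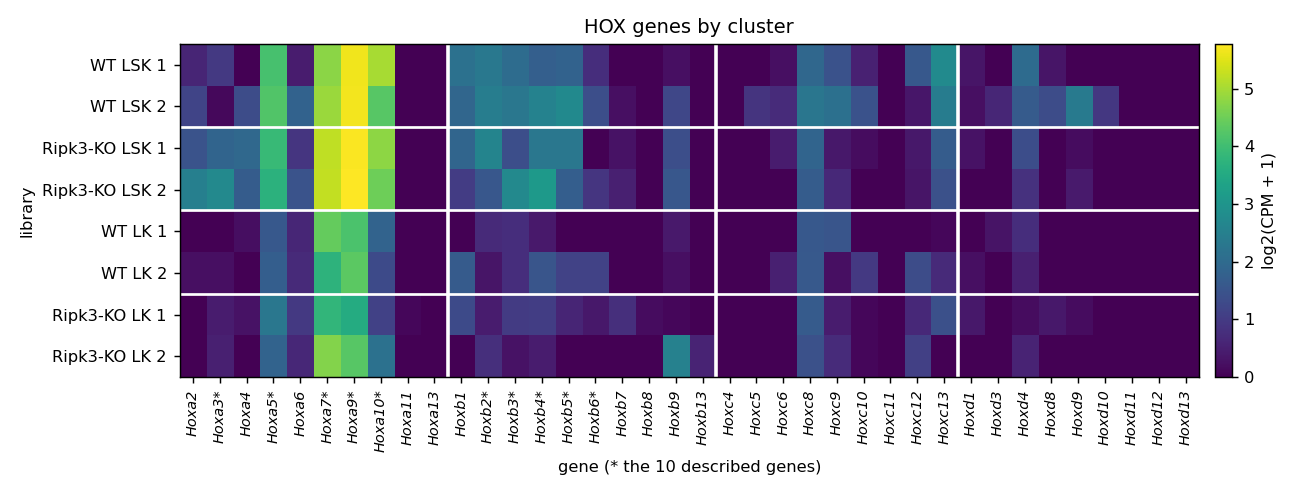
log2(CPM + 1) on the common scale for HOX genes of the 4 clusters (columns, in cluster order) in the 8 libraries (rows); asterisks mark the 10 genes described. Hoxa9, Hoxa7, Hoxa10 and Hoxa5 are the brightest columns, the HOXB genes and a few of the C and D clusters are faint and mostly in LSK rows, and 6 columns are empty.

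Noncoding transcripts and coding genes at the edge of the clusters were looked at too. Of 9 named noncoding genes 3 were in the files, all under older names. Hoxaas3, which runs antisense to Hoxa3 and Hoxa7, had a CPM of 1.22 and 2.27 in WT LSK, 1.08 and 3.27 in WT LK, 1.57 and 4.79 in Ripk3-KO LSK and 0.43 and 0.07 in Ripk3-KO LK libraries, and passed no test (adjusted p = 0.887 between populations in WT, where the sign turned with the scaling, and 0.0933 in Ripk3-KO, limma). Hoxaas2 and Hoxa11os had signal of at most 1.19. Of 6 coding neighbors, Snx10, a sorting nexin next to the HOXA cluster, was higher in LSK cells of Ripk3-KO (log2 fold change 0.94 ± 0.21, adjusted p = 0.00238, limma) and 0.56 in WT (adjusted p = 0.0539, limma).

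TALE cofactors, the DNA-binding partners of HOX proteins, were tested as a list of 9 genes. In WT 4 were called as higher in LSK cells and 0 as lower. In Ripk3-KO 3 were called as higher and 0 as lower, and the medians were 1.33 and 0.73. Over all genes tested, 1461 of 15950 were called as higher and 2353 as lower in WT. For Ripk3-KO these counts were 1212 and 1860 of 15237. Meis1, the partner of Hoxa9 in stem cells and leukemia, had a CPM of 288 and 256 in WT LSK, 82.0 and 86.7 in WT LK, 317 and 329 in Ripk3-KO LSK and 88.4 and 99.1 in Ripk3-KO LK libraries. The populations were far apart and the genotypes close. Its log2 fold change between populations was 1.68 ± 0.19 in WT and 1.78 ± 0.19 in Ripk3-KO (adjusted p = 1.5e-06 and 4.7e-07, limma).

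Pbx3 and Pknox2, which also encode TALE homeodomain proteins, passed in WT with log2 fold changes of 2.47 ± 0.63 and 2.06 ± 0.63, and Meis3 passed in Ripk3-KO with 2.22 ± 0.67, at a CPM of 13.6 or less in every library. Pknox2 and Meis3 did not pass with edgeR (adjusted p = 0.0719 and 0.0919). In Ripk3-KO Meis3 reached the filter only through its LSK libraries, with a CPM of 6.91 and 3.42 against 0.07 and 0.50 in LK libraries. Its call is thus no support of its own. Between genotypes 0 of the 9 were called in LSK and 0 of 8 in LK cells, with 1 and 0 at an unadjusted p under 0.05 (limma). All genes tested gave 3011 of 16817 in LSK and 915 of 13949 in LK cells at such a p. Meis1 differed by 0.25 ± 0.19 in LSK and 0.14 ± 0.19 in LK cells (adjusted p = 0.518 and 0.948, limma).

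Of 21 genes that activate the clusters, including the MLL and Menin complex, the super elongation complex and the CDX factors, 18 could be tested. In WT 1 was called as higher in LSK cells and 8 as lower, and in Ripk3-KO 3 as higher and 6 as lower. Among all genes tested, 1461 were called as higher and 2353 as lower of 15950 in WT. The counts in Ripk3-KO were 1212 and 1860 of 15237. All the calls for higher genes held under both other scalings, but only 1 of the 8 lower calls in WT and 2 of the 6 in Ripk3-KO did. Mllt3 (AF9), a super elongation subunit that supports HSC self-renewal, was among the higher ones in both genotypes. Its CPM was 73.7 and 30.0 in WT LSK, 23.9 and 18.0 in WT LK, 90.1 and 84.4 in Ripk3-KO LSK and 14.7 and 20.6 in Ripk3-KO LK libraries. The log2 fold change was 1.15 ± 0.36 in WT and 2.26 ± 0.36 in Ripk3-KO (adjusted p = 0.0261 and 9.1e-05, limma).

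Kmt2a, which encodes MLL itself, had log2 fold changes of 0.59 ± 0.29 in WT and 1.14 ± 0.29 in Ripk3-KO between populations (adjusted p = 0.144 and 0.00739, limma). Its signal was 45.3 and 41.5 in WT LSK and 87.3 and 83.2 in Ripk3-KO LSK libraries, without overlap. That difference between genotypes, 0.96 ± 0.29, did not pass with limma (adjusted p = 0.0887) or edgeR (0.134) and passed with DESeq2 (0.0373). Npm1, a nucleolar chaperone mutated in human HOXA-expressing leukemia, was lower in LSK cells of Ripk3-KO by a log2 fold change of -1.01 ± 0.15 (adjusted p = 2.5e-05, limma), and its lower level in WT (-0.61 ± 0.15) lost its call under another scaling. Between genotypes 0 of the 18 were called in either population, with 4 in LSK and 2 in LK cells at an unadjusted p under 0.05 (limma). Beside this, 3011 of all 16817 genes tested in LSK and 915 of 13949 in LK cells had such a p.

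Polycomb genes, which hold HOX clusters silent, went both ways. Of 23 tested, 1 was called as higher and 3 as lower in WT LSK cells, and 3 as higher and 3 as lower in Ripk3-KO LSK cells. All genes tested gave 1461 higher and 2353 lower of 15950 in WT, and 1212 and 1860 of 15237 in Ripk3-KO. The Polycomb counts are near that background. Phc1 (1.74 ± 0.35 in WT, adjusted p = 0.000999, limma) and Cbx7 (2.36 ± 0.55 in Ripk3-KO, adjusted p = 0.00327, limma) were among the higher ones, and Jarid2 (-1.39 ± 0.29 in Ripk3-KO) was among the lower ones. Under both other scalings all the higher calls held, and 2 of the 3 lower calls in WT and 1 of the 3 in Ripk3-KO. Pcgf2, also called as higher in Ripk3-KO, reached the filter only through its LSK libraries (CPM 7.48 and 4.88 against 0.58 and 0 in LK).

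Ezh2, the histone methyltransferase, differed by -0.55 and -0.52 (adjusted p = 0.0536 and 0.0769, limma), and Bmi1, needed for HSC self-renewal, by -0.27 and 0.30 (adjusted p = 0.619 and 0.643, limma), its WT value turning sign with the scaling. Between genotypes 0 Polycomb genes were called in LSK or LK cells, with 8 and 1 at an unadjusted p under 0.05 (limma). Among all genes tested, 3011 of 16817 in LSK and 915 of 13949 in LK cells had such a p.

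Genes known to be bound or raised by HOXA9 and MEIS1 in leukemia models formed the last list, of 14 genes with 13 tested between populations. In WT 5 were called as higher and 1 as lower in LSK cells, and in Ripk3-KO 5 as higher and 3 as lower. Beside this, 1461 of all 15950 genes tested were called as higher and 2353 as lower in WT. The counts in Ripk3-KO were 1212 and 1860 of 15237. Flt3, a cytokine receptor of early progenitors, had a CPM of 488 and 415 in WT LSK and 63.1 in both WT LK libraries, and of 775 in both Ripk3-KO LSK libraries and 102 and 79.8 in Ripk3-KO LK libraries. Its log2 fold change between populations was 2.81 ± 0.19 in WT and 3.09 ± 0.19 in Ripk3-KO. Mecom (EVI1), a stem cell transcription factor, was higher by 3.37 ± 0.47 and 3.89 ± 0.47, and Lmo2 and Cd34 were higher in both genotypes too. Myb, a driver of progenitor growth, was lower in LSK cells, with log2 fold changes of -0.97 ± 0.17 in WT and -0.69 ± 0.17 in Ripk3-KO (adjusted p = 0.00027 and 0.00539, limma), the second of which lost its call under the deposited scaling and under library totals.

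Of the HOX partner, regulator and target lists, only this one held genes that limma called between genotypes. These were 2 of 14 in LSK cells, with 5 at an unadjusted p under 0.05. Of all genes tested there, 2.16% were called, and 3011 of 16817 had an unadjusted p under 0.05 (limma). In Ripk3-KO LSK cells Flt3 was higher by 0.78 ± 0.19 (signal 555 and 473 against 874 and 886, adjusted p = 0.0298, limma) and Myb by 0.73 ± 0.17 (signal 263 and 251 against 381 and 480, adjusted p = 0.0216, limma). Both differences passed with edgeR (adjusted p = 0.0339 and 0.0333). In LK cells 0 of 13 were called, with 5 at an unadjusted p under 0.05 (limma), against 915 of all 13949 genes tested. The list came from general knowledge of leukemia models, with earlier results of these libraries known, and the HOX genes themselves were not called in the same contrast.

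**Figure D5:**
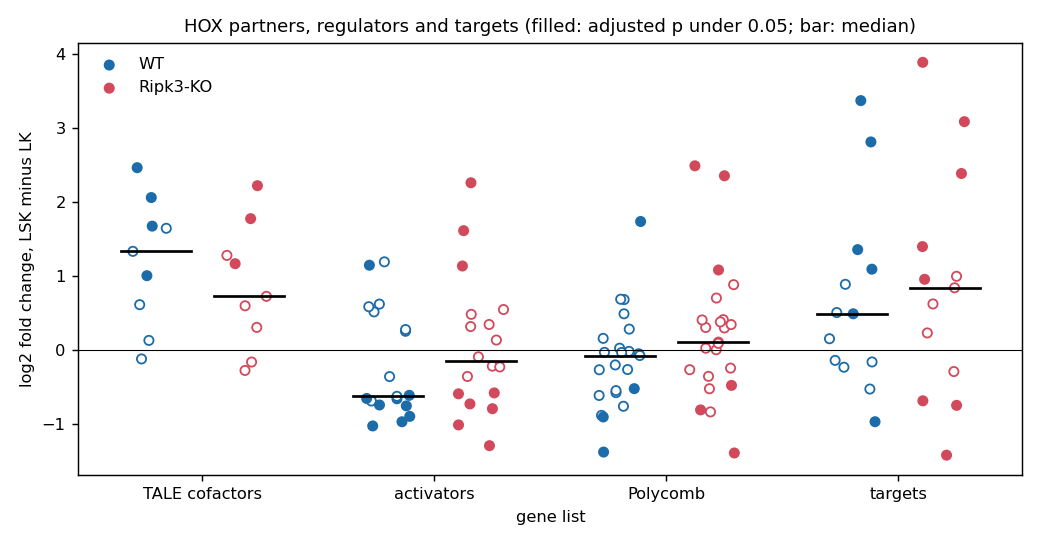
Log2 fold change of (CPM + 1), LSK minus LK, for each tested gene of the TALE cofactor, activator, Polycomb and target lists, within WT and within Ripk3-KO; filled points have an adjusted p under 0.05 (limma) and bars are list medians. TALE cofactors have medians of 1.33 and 0.73, activators of -0.62 and -0.16, Polycomb genes of -0.07 and 0.11, and targets of 0.49 and 0.84.

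Some genes followed the HOX levels closely over the 8 libraries. Likeness was measured as the root mean square difference between centered log2(CPM + 1) profiles, among 10696 genes with a mean CPM of at least 5. Lsp1, a leukocyte cytoskeletal protein, was nearest to the mean profile of Hoxa5, Hoxa7, Hoxa9 and Hoxa10, with a difference of 0.11 against a median of 1.12 over all genes, and had a CPM of 269 to 297 in LSK and 57.1 to 89.8 in LK libraries. Ptprcap (0.14) and Itih5 (0.15) came next. Nearest to the mean profile of Hoxb2, Hoxb3, Hoxb4 and Hoxb5 were 1110021L09Rik (0.16), Tmem98 (0.17) and Zfp36 (0.18), against a median of 0.99. The profiles are led by the 2 populations, so a gene that differs between them to a like degree is near.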

How the data were processed

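Signal values of 8 RNA-seq libraries were used as deposited by the authors. The file headers name FPKM, but in each library 100% of values were whole multiples (within 0.01) of 1 step, the same for all genes, so the signal is reads scaled by TMM within LSK or within LK with no division by length. The tests were planned for such values. The submitters' processing notes name TopHat and mm9; the counter is not given in the sources used here. The signal of 1 read was 0.0621 to 0.104. Intervals of pooled read ratios cover counting error only, and intervals of log2 fold changes are limma's, from the spread between libraries.

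Genotype contrasts and their interaction were tested with limma 3.58.1 (R 4.3.3; trend, all 8 libraries, 4 group means, 2-sided, Benjamini-Hochberg over all genes tested) on log2(signal + 1), keeping genes whose mean signal in the compared libraries reached 1. Population contrasts used CPM of the recovered reads with TMM over all 8 libraries. SE are limma's. Alternatives were edgeR 4.0.16, DESeq2 1.42.0, other pseudocounts, filters and scalings, a replicate block and leaving out each library. Limma was tested on simulated data. Positions came from GENCODE M21 on GRCm38 and promoters from RefSeq. The members and lists were chosen with earlier results of these data known. Named genes were the 10 members, the check genes, list genes called between genotypes or in the interaction, up to 4 per list called between populations with the largest change, Meis1, Kmt2a, Ezh2 and Bmi1, and the 3 nearest profiles per cluster. Lmo2, Cd34, Myb and Npm1 between populations, Hoxa2, Hoxa4 and Hoxa6 between genotypes, Gm28308, Gata1, other marker genes and the HOX genes with reads in single libraries fall outside that rule and were named after their values were seen. Some listed genes are counted but not reported here.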

Additional observations from a re-analysis of the deposited data

Results flagged for a closer look

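The genotype difference of 3 genes named above or used as checks differed between LSK and LK cells by the interaction test (limma). For Sox4, a target of HOXA9 and MEIS1, the difference between the 2 log2 fold changes was 2.53 (adjusted p = 0.0283, limma, and 0.0562 with edgeR): signal was 54.4 and 55.6 in WT LSK against 123 and 108 in Ripk3-KO LSK libraries, and 78.7 and 27.9 in WT LK against 11.99 and 22.0 in Ripk3-KO LK libraries. The 2 WT LK libraries were far apart, and neither genotype contrast alone passed (adjusted p = 0.144 in LSK and 0.0918 in LK, limma). For the neutrophil marker S100a8 it was 1.23 (adjusted p = 0.0216, limma), with genotype log2 fold changes of 1.55 in LSK and 0.32 in LK cells. For Ripk3 it was -2.40 (adjusted p = 0.0343, limma), with changes of -5.78 in LSK and -3.39 in LK cells.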

How the results depend on the processing

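The counts of HOX genes called between genotypes and in the interaction were 0 under every alternative run. Between populations in WT, 4 genes were called, and 3 to 6 under the alternatives; in Ripk3-KO 4 were called, 3 to 6 under the other settings and 2 to 4 with 1 library left out, with 2 without Ripk3-KO LSK replicate 2, Ripk3-KO LK replicate 1 or Ripk3-KO LK replicate 2. Of the single-gene results under alternatives, 611 kept their side of the threshold, 19 lost the call and 10 gained it, and 0 called values turned sign. The calls lost were of Hoxb2 in WT and of Hoxa5 and Hoxb4 in Ripk3-KO; those gained were of Hoxa7, Hoxa3 and Hoxb5; the cause was not tested. The median log2 fold change between populations ran from 1.34 to 2.63 in WT and from 1.65 to 2.79 in Ripk3-KO. Replicate numbers did not pair the libraries (r of deviations from -0.145 to 0.0510), and a replicate block left 4 HOX genes called in each population contrast and 0 between genotypes, with 317 against 363 genes called in LSK. A crossed replicate block in Ripk3-KO, chosen after seeing the data, called 3196 genes against 3072, and 4 HOX genes. The counts of all genes behind the background shares moved more: 363 in LSK (195 to 613, and 99 to 262 with 1 library left out), 66 in LK (9 to 177, and 13 to 101), 57 in the interaction (3 to 155, and 17 to 90), 3814 between populations in WT (2763 to 3731, and 1502 to 4116) and 3072 in Ripk3-KO (2126 to 3196, and 1489 to 3163). Depth limits the HOXB genes in LK cells, where single libraries held 0 to 22 reads.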

Other observations

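Several HOX genes outside the 10 had high values in 1 library of a pair. Hoxd9 had a signal of 4.66 in WT LSK replicate 2 and none in replicate 1, and Hoxd10 and Hoxc5 had reads only in WT LSK replicate 2 (signal 1.04 and 0.93). Hoxb9 had a signal of 4.22 in Ripk3-KO LK replicate 2 and 0.063 in replicate 1, and Hoxb13 had reads only in that replicate 2 (signal 0.43). The other WT LSK and Ripk3-KO LK library did not share these values.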
